A study of Mus musculus with 75 samples.

Results

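The polysome shift on stimulation is the change in how each gene's RNA was split between polysomal (Pol) and subpolysomal (SubPol) sucrose fractions when CD4 effector T cells were activated. An mRNA that carries several ribosomes at once sediments with polysomes, whereas free mRNAs and those with few ribosomes stay in the lighter fractions, so the ratio of both fractions is a common measure of how heavily a message is loaded. Naive and resting T cells translate little, and their activation through the T cell receptor and CD28 is known to increase protein synthesis and to change which messages are loaded. The comparison used 16 of the 75 libraries of the series: Pol and SubPol from 4 cultures stimulated with anti-CD3/CD28 beads and from 4 untreated cultures, 1 of each kind from each of 4 mice. All of these cultures were CD4 Teff cells of spleen and lymph nodes from mice with the genotype B6.SJL-PtprcaPepcb/BoyJ, in the assay the labels call SPEED. The shift of a gene is its log2 ratio of Pol over SubPol in stimulated cells minus the same ratio in untreated cells, tested as the interaction of fraction and stimulation with each culture as a block.

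For comparison, 8 Input libraries (RNA before fractionation) of the same cultures were used. A further 8 Pol and SubPol libraries came from bead-stimulated cultures with regulatory T cells (Tregs) of the same 4 mice. Another 6 came from bead-stimulated cultures of 3 of these mice that were given HHT 10 minutes before harvest. The other assay, RiboTag, gave 20 libraries from 5 other mice. One parent line of these, B6N.129-Rpl22tm1.1Psam/J, has a tagged ribosomal protein that Cre switches on, and the other, B6.Cg-Tg(Cd4-cre)1Cwi/BfluJ, carries Cre driven by Cd4. In that assay RNA pulled down with the tagged ribosomes (IP) and Input were sequenced from bead-stimulated and from IL7-rested cultures. The labels do not give the length of the stimulation or what HHT stands for. The files give Ensembl gene identifiers without names, so genes are described by their identifiers and values, and the labelled cell type could not be checked against its markers.

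The 16 libraries held 1566501 to 4481817 gene counts. The untreated culture of mouse 3 stood apart in part: its SubPol library had 12377 genes detected at a common depth of 1566501 counts, against 12833 to 13362 in the untreated SubPol libraries of the other 3 mice. The count of shifted genes, the genes detected and the spread of ratios are given with and without it. At that depth more genes were detected in stimulated than in untreated cells. In Pol the mean was 13160 ± 51.8 genes in stimulated and 12567 ± 93.8 in untreated cultures, and in SubPol it was 14028 ± 175 in stimulated and 12870 ± 403 in untreated cultures (SD, n = 4 each). In neither fraction did the groups overlap, and without the untreated culture of mouse 3 the untreated mean was 12611 ± 42.0 genes in Pol and 13035 ± 286 in SubPol (SD, n = 3). An exact permutation test that exchanges cultures across mice gave p = 0.0286 for each fraction (two-sided, 0.0429 after adjustment over 3 tests), the smallest that 4 against 4 can give. Within mice, stimulated cells had more genes in 4 of 4 mice, by 439 to 714 in Pol and 737 to 1404 in SubPol. An exact sign-flip test within mice, which keeps the pairing, gave p = 0.125 in both fractions, the smallest that 4 mice allow. The paired test could therefore not pass, and the permutation test leaves the pairing out. The difference is given as a description. The cultures are bulk samples, in which fewer cells of a type and less RNA per cell cannot be told apart.

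Stimulation moved 339 genes towards Pol and 186 towards SubPol. These are 3.09% and 1.69% of the 10981 genes tested (4.78% together; two-sided quasi-likelihood test of edgeR, adjusted by Benjamini-Hochberg at 0.05, n = 4 mice), and 22.2% of all genes had an unadjusted p under 0.05. Most shifts were modest: 27 of the genes moved at least 2-fold towards Pol (0.246% of those tested) and 58 at least 2-fold towards SubPol (0.528%). The median shift was 0.63 on the log2 scale among the genes that moved towards Pol, -0.79 among those that moved towards SubPol and -0.04 over all genes tested. The median standard error was 0.13 and 0.17 in the 2 called groups. The smallest shifts that passed were 0.36 and -0.38. In 7 of the called genes, 1 higher and 6 lower, a group of 4 libraries held no count at all, and the fitted size of such a shift depends on the prior count of the fit. Without them the median of the genes that moved towards SubPol was -0.77.

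The mice showed the called shifts alike. Of the 339 genes, 336 had a positive shift in 4 of 4 mice, and of the 186 genes, 182 had a negative one, where 31% of all genes tested had the same sign in 4 of 4 mice. The median shift of the genes called higher was 0.52, 0.64, 0.58 and 0.74 in mice 1 to 4, and that of the genes called lower was -0.79, -0.72, -0.86 and -0.74. These values chose the genes and are given as a description. For 332 of the genes called higher, the 4 stimulated cultures all lay above the 4 untreated cultures, as they did for 8.43% of all genes tested. For 177 of the genes called lower they all lay below, as for 7.32% of all genes. Over the 6867 well measured genes (those that averaged 5 or more in log2 CPM over the 16 libraries), the shifts of 2 mice correlated with r = 0.25 to 0.44 across genes, which are not independent replicates.

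The number of genes called depended on the fit, and the direction of some also depended on the denominator. Without a block the count was 115 genes, and without the untreated culture of mouse 3 it was 352 (220 higher and 132 lower). With mouse 1, 2, 3 or 4 left out it was 21, 16, 372 and 3 genes, and DESeq2 called 1311. With the ratio also paired by mouse, 218 genes passed, 73.9% of them higher. With libraries scaled to their totals alone, 227 genes were higher and 325 lower, so that 41.1% of the called genes were higher, against 64.6% in the fit reported. Where Input replaced SubPol below the ratio line, 0 genes passed the edgeR test (844 had an unadjusted p under 0.05). With Pol over Input 469 of the 525 genes kept their sign. In the 21 alternatives that set Pol over SubPol, all 525 kept it wherever tested, but these fits share the libraries that chose the genes.

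A choice of genes made without a mouse was then set against that mouse. The 200 genes with the smallest p in each direction were taken from the other 3 mice, a fixed number because the counts past the test were as low as 3. Their median shift in the mouse left out was 0.47, 0.59, 0.47 and 0.73 for the genes that had been higher, with mice 1 to 4 left out in turn. For the genes that had been lower it was -0.50, -0.49, -0.59 and -0.46. The median over all genes in these mice lay between -0.06 and 0.02. Between 89.5% and 97.5% of the higher genes were above 0 in the mouse left out, where 46.5% to 51.0% of all genes were. Between 81% and 85.5% of the lower genes were below 0, where 49.0% to 53.5% of all genes were. The chosen genes and all genes were not compared at equal level. Over all 4 mice the median shift differed by level, from -0.38 below a mean log2 CPM of 3 to 0.31 above 9.

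**Figure D1:**
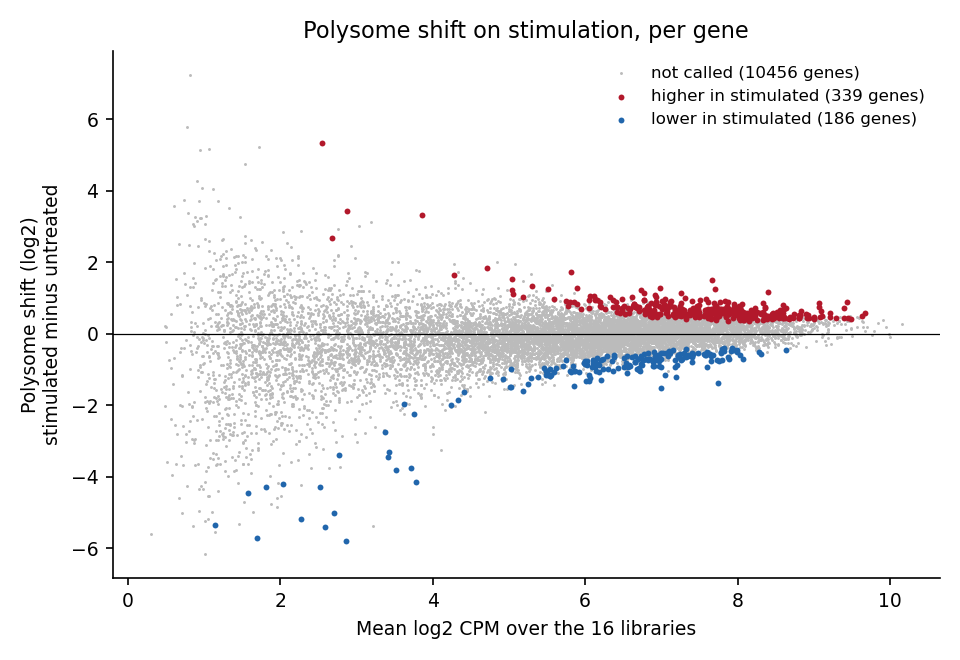
Polysome shift of each of the 10981 genes tested (vertical axis, log2 ratio of Pol over SubPol in stimulated minus untreated cells) against its mean log2 CPM over the 16 libraries (horizontal axis). Red points are the 339 genes called higher, blue points the 186 called lower and grey points the rest; the called shifts are small at high levels, and the few called genes at low levels have the largest shifts.

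In untreated cells the median ratio of the called genes lay near that of all genes tested, and in stimulated cells it did not. The genes called higher had a median log2 ratio of Pol over SubPol of 0.70 in stimulated and 0.04 in untreated cultures. Of these 339 genes, 132 had a higher CPM in Pol than in SubPol in stimulated cells and the reverse in untreated cells. A further 177 were on the Pol side in both and 30 on the SubPol side in both. The genes called lower had a median log2 ratio of -0.78 in stimulated and 0.08 in untreated cultures. Of these 186 genes, 75 were on the SubPol side in stimulated and on the Pol side in untreated cells, 28 were on the Pol side in both and 83 on the SubPol side in both. Over all genes tested, the median of the genes' mean ratios was -0.01 in stimulated and 0.05 in untreated cultures. As every library was scaled by its own counts, these ratios place a gene relative to the other genes, and a movement of all mRNA between the fractions does not appear.

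The shift of a gene is its change in Pol minus its change in SubPol, and both parts contributed. Stimulation changed 57.1% of all genes tested in Pol (28.7% higher and 28.4% lower) and 52.8% in SubPol (26.5% higher and 26.3% lower). These changes come from the same libraries as the shift, so the counts that follow describe how the shifts were made up and are no separate evidence for them. Of the 339 genes called higher, 175 were higher and 50 lower in Pol, and 46 were higher and 168 lower in SubPol. In 110 of them only the rise in Pol passed, in 99 only the fall in SubPol, and in 19 both passed in opposite directions. Another 46 rose in both fractions, and 50 fell in both. In the last 15 neither change passed. Their median change was 0.34 in Pol and -0.30 in SubPol on the log2 scale.

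Among the 186 genes called lower, the change in Pol was the larger part. In Pol 120 were lower and 33 higher, and in SubPol 70 were higher and 50 lower. Only the fall in Pol passed in 63 genes and only the rise in SubPol in 30. Both passed in opposite directions in 7, both fractions fell in 50 and both rose in 33, and neither change passed in 3. Their median change was -0.59 in Pol and 0.11 in SubPol. The change in SubPol was the larger in size in 35.5% of them, against 49.0% of the genes called higher and 44.5% of all genes tested.

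**Figure D2:**
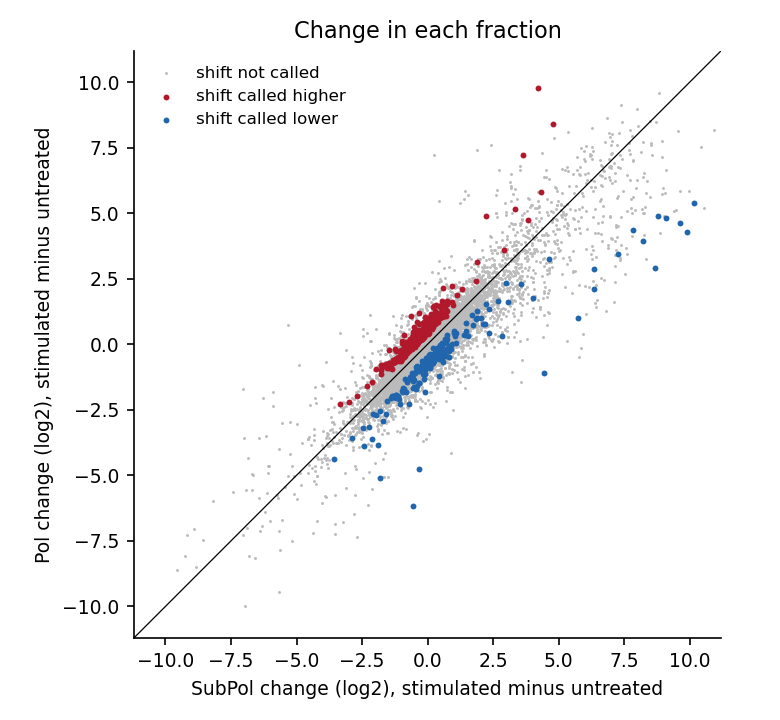
Change on stimulation of each gene in Pol (vertical axis) against its change in SubPol (horizontal axis), both log2, stimulated minus untreated, with a line where both are equal. Genes called higher (red) lie above the line and genes called lower (blue) below it, most of them within a few log2 units of 0 and a few among genes far higher in stimulated cells in both fractions.

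RNA levels before fractionation, which the shift does not use, were then set beside it. In Input 28% of all genes tested were higher in stimulated cells and 27.5% lower (55.6% together; edgeR, n = 4 mice per group). Of the genes that moved towards Pol, 150 of 339 (44.2%) were also higher in Input and 74 (21.8%) lower. Of the genes that moved towards SubPol, 40 of 186 (21.5%) were higher in Input and 81 (43.5%) lower. The median Input change was 0.19 and -0.28 in the 2 groups. The Input, Pol and SubPol libraries were separate but came from the same cultures. Over the 6867 well measured genes, the shift and the Input change correlated with r = 0.19 (rho 0.23) across genes. Over all 10981 genes r was -0.03 (rho 0.10).

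Among well measured genes the shift was on average lower where the Input level was lower in stimulated cells. It was not highest in the genes whose Input level rose most on stimulation. The 132 genes whose Input level was lower by more than 2 on the log2 scale had a median shift of -0.25, and in the 654 genes lower by 1 to 2 it was -0.15. The 3457 genes whose Input levels differed by less than 0.5 had a median shift of 0.06. The median was 0.15 in the 986 genes higher by 0.5 to 1 and 0.09 in the 475 genes higher by 1 to 2. In the 122 genes higher by more than 2 it was -0.09, with a range of -0.14 to 0.07 over the 4 mice. Their median log2 ratio of Pol over SubPol was 0.48 in stimulated and 0.48 in untreated cells. Of these genes, 3 (2.46%) were called higher and 2 (1.64%) lower. Among the 3457 well measured genes whose Input levels differed by less than 0.5, the shares were 5.90% and 2.20%. Over all genes tested, which include those less well measured, they were 3.09% and 1.69%.

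The shift also went with the level of the gene. The genes called higher had a median of 7.62 in mean log2 CPM and the genes called lower 6.69, against 5.71 over all genes tested. Shifts are easier to call at high counts, and that part was not tested. The median shift itself was -0.38 in the 1827 genes below a mean log2 CPM of 3, -0.18 in the 2287 genes between 3 and 5, and -0.05 in the 4415 genes between 5 and 7. It was 0.11 in the 2361 genes between 7 and 9. In the 91 genes above 9 it was 0.31, with 0.07, 0.31, 0.35 and 0.44 in mice 1 to 4. In this highest class 18 genes (19.8%) were called higher and 0 lower by edgeR.

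The shares of all counts that these classes took show where the trend lay. Genes below a mean log2 CPM of 3 took 0.988% ± 0.138 of the counts in stimulated Pol and 0.742% ± 0.049 in untreated Pol (SD, n = 4 each). In SubPol they took 1.41% ± 0.129 in stimulated and 0.901% ± 0.050 in untreated cultures. Their share was thus higher in stimulated cells in both fractions, and more so in SubPol. The 91 genes above 9 took 5.77% ± 0.903 in stimulated and 6.05% ± 0.452 in untreated Pol, and 5.64% ± 0.632 in stimulated and 6.69% ± 0.560 in untreated SubPol. In that class the ranges of stimulated and untreated cultures overlapped in both fractions.

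**Figure D3:**
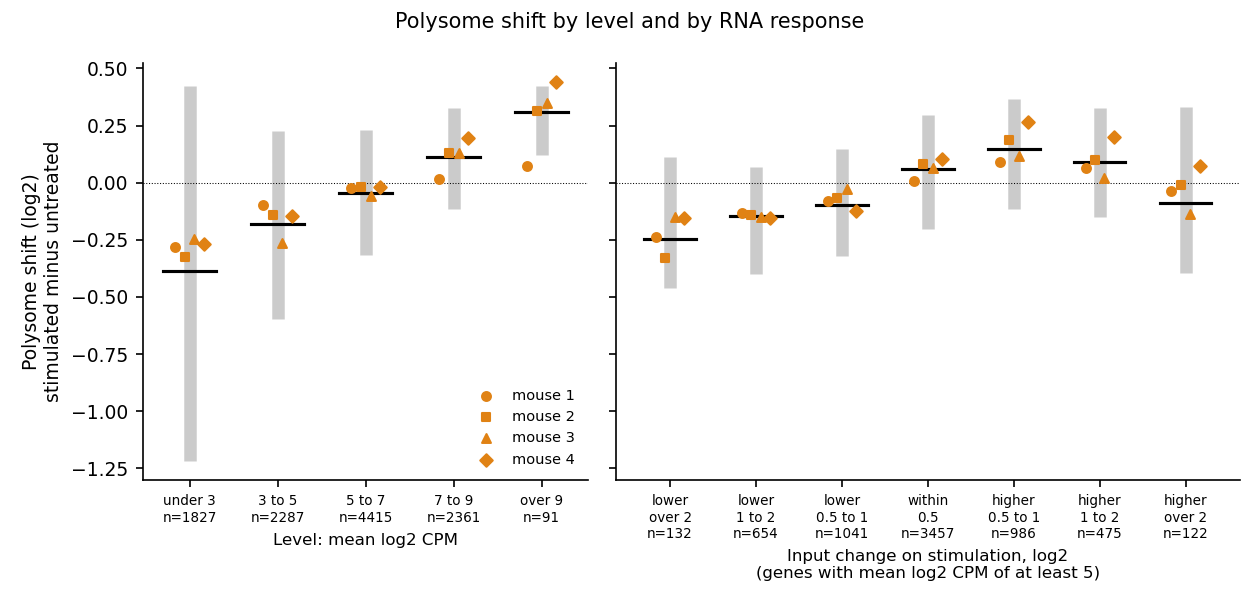
Polysome shift (vertical axis, log2, stimulated minus untreated) by mean log2 CPM over the 16 libraries (left) and by the Input change on stimulation among well measured genes (right, log2), with the number of genes in each class. Black lines are medians of the fitted shifts, grey bars their quartiles and orange points the median of each mouse's own log2 ratios, which a prior count of 2 draws towards 0 at low counts; the medians rise with level from -0.38 to 0.31.

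The same genes were followed in the cultures with Tregs and with HHT, which had no part in choosing them. The 339 genes called higher had a median log2 ratio of Pol over SubPol of 0.68 ± 0.09 in stimulated cultures and 0.57 ± 0.08 in stimulated cultures with Tregs (SD, n = 4 each). It was 0.04 ± 0.12 (SD, n = 3) in stimulated cultures with HHT and 0.04 ± 0.03 (SD, n = 4) in untreated cultures. The 4 stimulated cultures lay between 0.57 and 0.79 and the 4 Treg cultures between 0.50 and 0.69, so these overlapped. All lay above the untreated cultures, between -0.01 and 0.07. For the stimulated cultures that follows from the choice of the genes, and the untreated values had a part in that choice too. The 3 HHT cultures, at 0.01, 0.17 and -0.06, overlapped with the untreated ones. With HHT the ratios of all well measured genes lay closer together (SD across genes 0.437, against 0.700 in untreated cultures). A median near 0 with HHT can therefore not be read as particular to these genes.

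The 186 genes called lower had a median ratio of -0.77 ± 0.05 in stimulated cultures and -0.56 ± 0.06 in stimulated cultures with Tregs (SD, n = 4 each). It was 0.01 ± 0.09 (SD, n = 3) with HHT and 0.06 ± 0.06 (SD, n = 4) in untreated cultures. The Treg cultures, between -0.62 and -0.47, did not overlap with the stimulated ones, between -0.81 and -0.72. The stimulated and untreated values had a part in choosing the genes and the Treg and HHT values had none. The distances between these kinds of culture are therefore given without a test. The median over all genes tested, taken within each culture, was between -0.03 and 0.02 in every one of the 15 cultures.

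**Figure D4:**
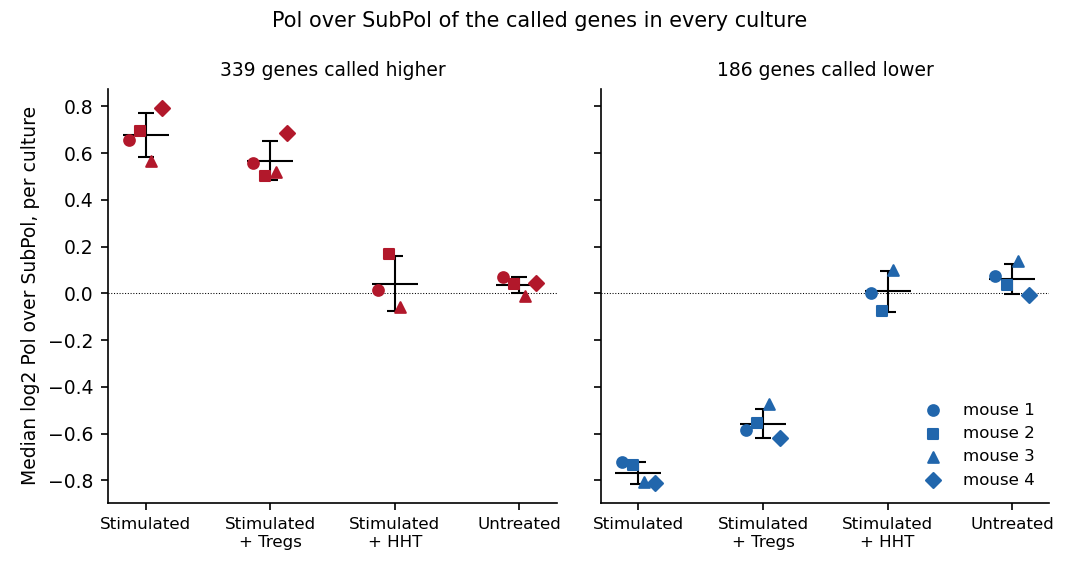
Median log2 ratio of Pol over SubPol (vertical axis) of the 339 genes called higher (left) and the 186 genes called lower (right) in each culture, stimulated, stimulated with Tregs, stimulated with HHT and untreated. Points are cultures with a symbol per mouse, lines the mean and bars the SD. Treg cultures lie near the stimulated ones. HHT cultures (3 mice), in which the ratios of all well measured genes spread least, overlap with the untreated ones.

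The whole spread of ratios across genes did not pass a test of difference between stimulated and untreated cells. Over the 6867 well measured genes, the log2 ratio of both fractions had an SD of 0.749 ± 0.030 in stimulated and 0.700 ± 0.075 in untreated cultures (SD over cultures, n = 4 each). The difference was 0.05 (two-sided exact permutation test, p = 0.314 before and after adjustment over 3 tests). The untreated culture of mouse 3 had the highest of the 8 values, 0.803, and without it, a choice made after its value was seen, the difference was 0.08. The 4 stimulated and 3 untreated cultures then did not overlap (exact permutation p = 0.0571, where 4 against 3 can give 0.0286 at the least). The SD was 0.725 ± 0.031 with Tregs (n = 4) and 0.437 ± 0.079 with HHT (n = 3). The 3 HHT cultures lay between 0.384 and 0.528, below each of the other 12.

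In the RiboTag assay the genes that had moved towards Pol lay towards the tagged ribosomes after stimulation, by a small amount. There 9 of 10483 genes (0.0859%) changed their ratio of IP over Input on stimulation (edgeR with the culture as a block, n = 5 mice per group; 1109 had an unadjusted p under 0.05, and 2 genes passed without the block). Of the 339 genes called higher in SPEED, 258 (76.1%) had a positive change and 3 passed, 0.0572% of all genes tested being called higher. An unadjusted p under 0.05, in either direction, was found in 82 of them (24.2%), against 12.4% of well measured genes. The genes called higher had a median of 7.62 in mean log2 CPM, whereas well measured genes start at 5. The shares were not compared at equal level. Over all well measured genes 54.2% had a positive change. The median log2 change was 0.10 in the genes called higher, against 0.02 over well measured genes. Of the 185 genes called lower that were tested there, 107 (57.8%) had a negative change and 0 passed (32, or 17.3%, had an unadjusted p under 0.05 in either direction), with a median of -0.06. Per culture, the median log2 ratio of IP over Input of the genes called higher was 0.06 to 0.21 in the 5 stimulated cultures and -0.04 to 0.08 in the 5 rested ones, which overlap. Over 6866 well measured genes the changes of the 2 ratios correlated with r = 0.15 across genes. The rested cells of that assay were kept in IL7 and the untreated cells of SPEED were not so labelled, so the baselines differ.

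Single genes show the kinds of change that make up a shift. ENSMUSG00000021714 had the largest rise among the 334 genes that met the rule for naming (past the test, 3 or more in mean log2 CPM, and a shift of equal sign in 4 of 4 mice). In Pol it had 118, 130, 118 and 160 CPM in stimulated cultures of mice 1 to 4, against 5.79, 2.01, 2.28 and 4.62 CPM in untreated cultures. In SubPol it had 84.5, 88.9, 89.9 and 103 CPM in stimulated, against 9.49, 5.34, 10.8 and 10.7 CPM in untreated cultures. The gene was thus far higher in stimulated cells in both fractions, without overlap, and on the Pol side in stimulated but on the SubPol side in untreated cells. Its shift was 1.85 ± 0.30 (log2, SE; edgeR adjusted p = 0.0131). In Input it was also higher in stimulated cells, at 108.8 ± 12.05 CPM against 4.89 ± 3.07 CPM in untreated cells (SD, n = 4 each). With mouse 1, 2 or 4 left out its adjusted p was 0.0515, 0.0755 and 0.107.

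ENSMUSG00000029817, the second largest rise, moved between the fractions with an Input change of 0.17 on the log2 scale. In Pol it had 76.3, 79.6, 82.7 and 58.5 CPM in stimulated cultures, against 37.9, 33.9, 44.2 and 23.8 CPM in untreated cultures. In SubPol it had 51.3, 54.7, 44.9 and 46.9 CPM in stimulated, against 84.7, 70.5, 88.0 and 64.4 CPM in untreated cultures. Pol was thus higher and SubPol lower after stimulation, with no overlap in either fraction. In Input it averaged 63.0 ± 8.58 CPM in stimulated and 56.3 ± 6.64 CPM in untreated cultures (SD, n = 4 each), a difference that did not pass (edgeR adjusted p = 0.376). Its shift was 1.74 ± 0.20 (log2, SE; edgeR adjusted p = 0.00332), with 1.71, 1.58, 1.85 and 1.72 in mice 1 to 4. In 20 of the 21 alternatives with Pol over SubPol the call was kept, and without mouse 4 its adjusted p was 0.0765.

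ENSMUSG00000053581 had the smallest adjusted p of the genes called lower and was chosen for that after its values were seen. In Pol it had 21.7, 22.3, 30.4 and 24.2 CPM in stimulated cultures, against 308, 266, 302 and 352 CPM in untreated cultures. In SubPol it had 92.4, 104, 94.4 and 67.3 CPM in stimulated, against 371, 350, 393 and 440 CPM in untreated cultures. Its RNA was lower after stimulation in both fractions without overlap, and by more in Pol, with a change of -3.62 in Pol and -2.10 in SubPol on the log2 scale. In Input it averaged 49.2 ± 13.8 CPM in stimulated and 338 ± 19.7 CPM in untreated cultures (SD, n = 4 each). Its shift was -1.53 ± 0.15 (log2, SE; edgeR adjusted p = 0.00156), and -1.79, -1.80, -1.24 and -1.12 in mice 1 to 4.

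ENSMUSG00000007080, the largest fall by the rule, rests on few untreated counts. In Pol it had 129, 83.8, 120 and 84.1 CPM in stimulated cultures, against 2.32, 5.17, 16.2 and 2.49 CPM in untreated cultures. In SubPol it had 83.0, 78.3, 65.0 and 59.9 CPM in stimulated cultures, whereas 3 of the 4 untreated cultures had no count and that of mouse 4 had 1.06 CPM. The gene was therefore far higher in stimulated cells in both fractions, and its fall in Pol over SubPol comes from the near absence of untreated SubPol counts. Over the 4 untreated cultures there were 104 counts in Pol, 71 of them in mouse 3, and 2 in SubPol. The scaled ratio was 37.4 (95% exact interval 10.1 to 313, for counting error only). In Input it averaged 184 ± 19.5 CPM in stimulated and 5.42 ± 8.20 CPM in untreated cultures (SD, n = 4 each). Of the untreated Input libraries, 2 had no count. The fitted shift was -4.14 ± 0.82 (log2, SE; edgeR adjusted p = 0.0238). Within the 4 mice, log2 ratios computed with a prior count of 2 gave shifts between -3.74 in mouse 3 and -0.37 in mouse 4, each smaller in size than the fitted one. The call was kept in 10 of 21 alternatives, over which the shift ranged from -6.97 to -2.13. Without the untreated culture of mouse 3 it was -2.93 (adjusted p = 0.0805), and without mouse 4 it was -6.96 (adjusted p = 0.0901).

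**Figure D5:**
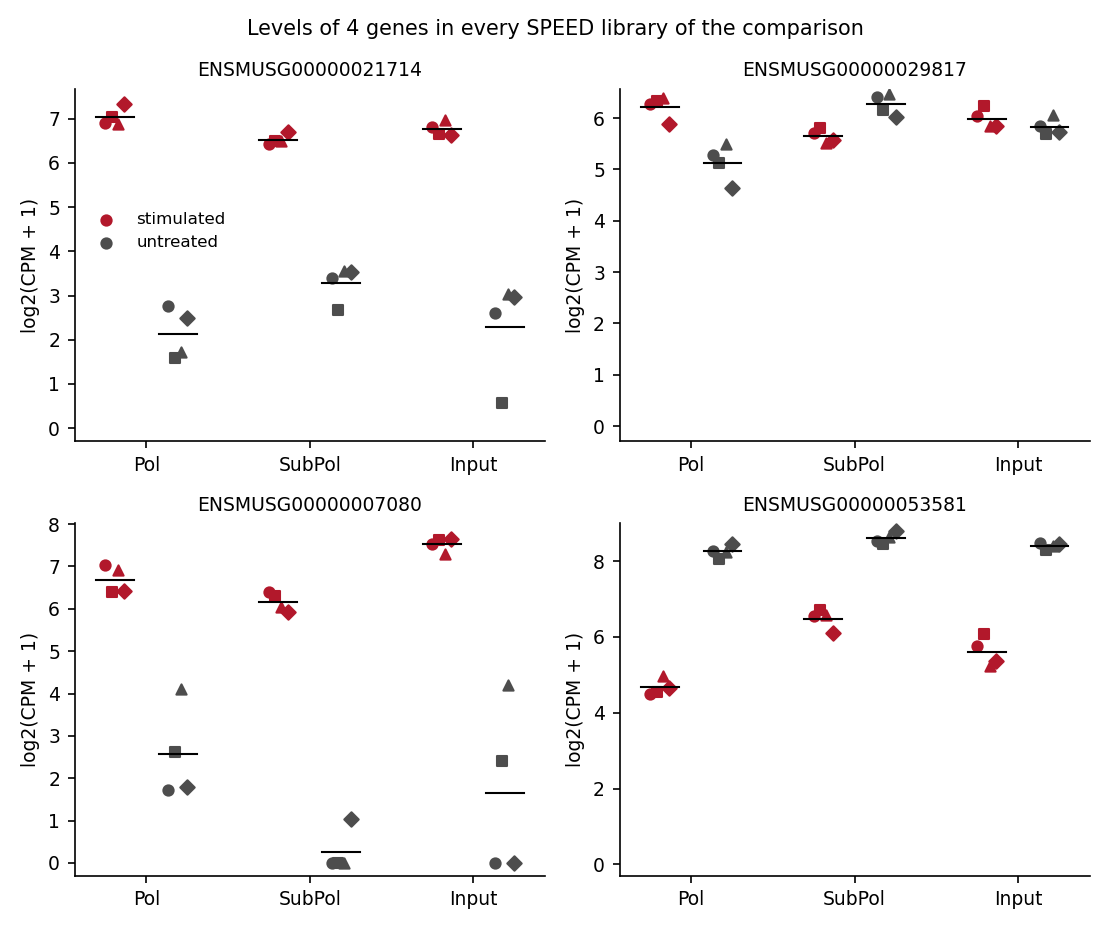
Level of the 4 genes as log2(CPM + 1) (vertical axis) in Pol, SubPol and Input of stimulated (red) and untreated (grey) cultures, with a symbol for each of the 4 mice as in the plots by mouse (circle, square, triangle and diamond for mice 1 to 4) and a line at the mean of each group. ENSMUSG00000029817 lies higher in SubPol in untreated and in Pol in stimulated cells, and the other 3 genes also differ in Input between the groups.

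The 4 genes gave no call in the RiboTag assay. The change of IP over Input on stimulation was 0.97 ± 0.55 for ENSMUSG00000021714 and 0.30 ± 0.25 for ENSMUSG00000029817 (log2, SE; edgeR adjusted p = 0.569 and 0.738, n = 5 mice per group). For ENSMUSG00000021714 the rested cultures held only 16 counts in Input and 9 in IP. Mouse 1 gave 13 and 8 of these, so the change rests largely on 1 rested culture near the floor. It was -0.18 ± 0.44 for ENSMUSG00000007080 (adjusted p = 0.929) and 0.00 for ENSMUSG00000053581, which did not pass. No standard error is given for the last gene, as its computation is unstable at a change this near 0. In RiboTag Input, ENSMUSG00000053581 averaged 66.2 CPM in stimulated and 80.3 CPM in rested cultures. In SPEED Input it averaged 49.2 CPM in stimulated and 338 CPM in untreated cultures. The fall of its RNA seen in SPEED was thus much smaller in RiboTag, and the baselines differed for this gene. IP over Input and Pol over SubPol are different ratios, so their sizes are not compared directly. With Pol over Input in SPEED the changes were 0.66 (ENSMUSG00000021714), 0.97 (ENSMUSG00000029817), -1.30 (ENSMUSG00000007080) and -0.81 (ENSMUSG00000053581). Those too did not pass, and each was smaller in size than the gene's shift.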

How the data were processed

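RNA of CD4 effector T cells was measured in Pol, SubPol and Input libraries, made with SMART-Seq v4 and NexteraXT kits per the labels' protocols. Strand is not marked by that kit, so overlapping genes on opposite strands cannot be told apart. The authors deposited raw gene counts, whole numbers for 53465 identifiers, 1 column per library and not pooled. Per the submitters' processing notes the build was GRCm38, with HTSeq 0.4.1, Picard 1.134, FastQC 0.11.3 and SAMtools 1.2; the aligner is not given in the sources used here. 16 columns of the RiboTag table match no label and were not used.

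The main tool was edgeR 4.0.16 in R 4.3.3, with filterByExpr (minimum count 10, minimum total 15), TMM factors and robust quasi-likelihood fitting with 8 cultures as a block and a Pol term per stimulation (6 residual degrees of freedom, common biological coefficient of variation 0.178). Pol, SubPol and Input changes were fitted without a block, and RiboTag with one. Standard errors are the log2 change over the square root of F, which is unstable where the change is close to 0. CPM per library, and the ratio per culture (log2 CPM, prior count 2), used the 30 Pol and SubPol libraries scaled together. DESeq2 1.42.0 and limma 3.58.1 served as alternatives. The fits were also run on simulated counts drawn without any culture or mouse effect. That run cannot show how the blocked fit behaves where such effects exist.

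Per the labels, libraries of equal number share a mouse. Deviations from group means correlated between Pol and SubPol of a culture with r = 0.09 to 0.49, and between stimulated and untreated libraries of a mouse with r = -0.04 to 0.23. No library was a copy of another (chi-square per degree of freedom 3.28 to 13.8 in 24 pairs). The mice are separate animals. The p-values of the shift measure the spread between their cultures, without pairing by mouse. Those of the Pol and SubPol changes come from a fit that treats both fractions of a culture as independent. At the lowest depth 1 count is under 1 CPM, so genes near that level have little precision.

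The comparison, gene lists and rules were chosen with earlier results of these data known. Planned gene lists, cell type markers and sequence features need gene symbols and were not run. The rule for naming took the largest shifts among genes past the test, with 3 or more in mean log2 CPM and a shift of equal sign in 4 of 4 mice, without its terms on symbols; 2 rises and 2 falls are printed, and the second fall, which had 3 counts in untreated SubPol, was replaced after the values were seen. The lists of 200 genes, the shares of counts by level and the counts by fraction were also chosen after seeing the data.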

Additional observations from a re-analysis of the deposited data

Results flagged for a closer look

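Of 77 groups of 4 or 5 values examined, 3 held a library whose gap to its nearest neighbour was large for the group's range. For normally distributed values chance gives about 1 in 20 such groups, so 3 of 77 is no excess. All 3 groups hold values near the floor, where that rate need not hold. In untreated SubPol, ENSMUSG00000007080 had 1.06 CPM in mouse 4 and no count in the other 3 libraries. In IL7-rested RiboTag cultures, ENSMUSG00000021714 had 6.04 CPM in Input of mouse 1, where the other 4 mice had 0 to 1.02 CPM. In IP of the same culture it had 3.21 CPM, against 0 to 0.484 CPM in the other 4.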

How the results depend on the processing

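The count of 525 shifted genes was 1311 with DESeq2, 943 with all 30 Pol and SubPol libraries and 926 with 44 SPEED libraries. It was 297 with the mouse as a replicate block, 218 with the ratio paired by mouse, 115 with no replicate block and 3 with limma on the ratios (2289 at an unadjusted p under 0.05). Leaving out 1 mouse gave 3 to 372 genes, and with 30 libraries 193, 251, 751 and 391 without mice 1 to 4. The lowest of these, 3, came without mouse 4. In edgeR, 0 genes passed with Pol over Input (844 at an unadjusted p under 0.05) and 0 with SubPol over Input (1322). RLE scaling gave 547, library totals 552, no filter on low counts 717 and a filter at a CPM of 5 gave 537. The cause was not tested. With SubPol over Input the ratio has SubPol on top, and the named genes then had the opposite sign, at -1.24 (ENSMUSG00000021714), -0.76 (ENSMUSG00000029817), 3.01 (ENSMUSG00000007080) and 0.71 (ENSMUSG00000053581). The call was kept in 17, 20, 10 and 20 of 21 alternatives with Pol over SubPol for these 4 genes, in that order. The Pol, SubPol and Input counts stayed within 1.5 times the reported ones (5232 to 6493, 4888 to 6084 and 4984 to 6275), with the mouse as a replicate block too. RiboTag gave 2 genes with no replicate block and 2 to 36 with a mouse left out, 36 without mouse 1. The difference in spread was 0.02 to 0.08 in 8 alternatives (exact permutation p = 0.0571 to 0.8); with a mouse left out (smallest possible p 0.1) or as a replicate block by sign flips within mice (p = 0.375, smallest 0.125) it could not pass, so these say nothing of its stability. The same holds for the genes detected: their difference was 593 in Pol and 1157 in SubPol under that block (exact p = 0.125 each), and with a mouse left out it was 553 to 644 and 1075 to 1297 (exact p = 0.1 each). SubPol over Input, the 30-library fits with libraries left out, the alternatives of the Pol and SubPol changes and of the genes detected, the sign flips and the spread without the untreated culture of mouse 3 were chosen after seeing the data.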
